A study of Mus musculus with 2 samples.

Results

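The 6 genes described here are Klf2, Klf4, Nos3, Piezo1, Heg1 and Thbd, which were chosen by name as genes of the endothelial response to blood flow and make up 6 of the 22401 features counted in 2 single-cell RNA sequencing libraries. These were made from the whole hearts of mouse embryos at E11.5, a stage at which valves and trabeculae are forming. All 6 were found in both libraries. The control library came from embryos with 1 floxed and 1 wild-type Hand2 allele and no Cre. The H2CKO library came from embryos heterozygous for Nfatc1-Cre in which both Hand2 alleles were floxed. The R26R mTmG reporter was heterozygous in the control as well as in H2CKO; it labels membranes with Tomato and, once Cre has acted, with GFP. Nfatc1 drives Cre in the endocardium, so cells of the endocardial lineage lose Hand2 and the other lineages of the H2CKO heart keep it. The control embryos carried no Cre, so effects of Cre itself and of the loss of Hand2 cannot be told apart. Embryos waited on ice for about 3 hours before hearts were dissociated with TrypLE, and how many embryos went into each library is not given in the labels.

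Endothelial cells line the inside of the heart and vessels and read the drag of flowing blood. PIEZO1 is a stretch-gated calcium channel that opens under shear. HEG1 is a transmembrane receptor that anchors the CCM protein complex at endothelial junctions, and that complex holds back the kinases MEKK3, MEK5 and ERK5, which act through MEF2 factors. KLF2 and KLF4 are zinc-finger transcription factors at the end of that route, which flow raises in cultured endothelium and which are known from the endocardium over the forming valves. NOS3, the endothelial nitric oxide synthase, and THBD, the thrombin receptor thrombomodulin that starts protein C activation, are well-known targets of KLF2. HAND2 is a basic helix-loop-helix factor needed in the endocardium for trabeculation and valve formation.

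Klf2 lay on the plus strand of chromosome 8 of mouse build GRCm38 (chr8:72319033-72321656) and Klf4 on the minus strand of chromosome 4 (chr4:55527143-55532466). Nos3 lay on the plus strand of chromosome 5 (chr5:24364810-24384474), Piezo1 on the minus strand of chromosome 8 (chr8:122481698-122551329), Heg1 on the plus strand of chromosome 16 (chr16:33684370-33771576) and Thbd on the minus strand of chromosome 2 (chr2:148404466-148408188). Klf2, Klf4 and Thbd are compact genes with spans of 2624, 5324 and 3723 bases. Nos3 spans 19665, Piezo1 69632 and Heg1 87207 bases. Nos3 overlaps Atg9b on the opposite strand and Piezo1 overlaps Ctu2 on the opposite strand, and whether the authors' counting used strand is not given in the sources used here. Atg9b gave 22 UMIs (unique molecules) in control and 37 in H2CKO endothelial-like cells, against 804 and 862 for Nos3.

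Promoter windows from 250 bases before to 50 bases after the start site were present for 4 of the 6 genes in the RefSeq table of GRCm38.p6 (Klf2, Klf4, Piezo1 and Heg1). Shown are 3 of them, because Klf2 and Klf4 were found together in single cells and Heg1 had the largest difference between the libraries of the 6 genes. Capitals mark CACCC, the core that KLF factors bind, CTA and TAG held apart by any 4 bases, a MEF2 core, and GAGACC, the letters named as a shear stress element, each searched on both strands. No marked matches overlapped each other.
Klf2 promoter, chr8:72318812-72319111, plus strand: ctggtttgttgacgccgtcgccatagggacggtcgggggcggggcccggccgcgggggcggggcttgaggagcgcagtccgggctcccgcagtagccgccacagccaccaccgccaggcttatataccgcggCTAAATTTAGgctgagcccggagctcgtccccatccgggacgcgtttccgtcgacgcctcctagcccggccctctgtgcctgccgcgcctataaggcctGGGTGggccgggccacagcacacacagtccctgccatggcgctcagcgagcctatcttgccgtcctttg
Klf4 promoter, chr4:55532426-55532725, minus strand: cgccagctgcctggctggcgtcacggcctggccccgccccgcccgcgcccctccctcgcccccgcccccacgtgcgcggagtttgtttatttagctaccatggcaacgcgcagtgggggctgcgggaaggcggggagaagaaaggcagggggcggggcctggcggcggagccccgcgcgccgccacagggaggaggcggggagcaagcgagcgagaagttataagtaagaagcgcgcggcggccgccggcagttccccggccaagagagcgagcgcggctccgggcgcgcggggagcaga
Heg1 promoter, chr16:33684216-33684515, plus strand: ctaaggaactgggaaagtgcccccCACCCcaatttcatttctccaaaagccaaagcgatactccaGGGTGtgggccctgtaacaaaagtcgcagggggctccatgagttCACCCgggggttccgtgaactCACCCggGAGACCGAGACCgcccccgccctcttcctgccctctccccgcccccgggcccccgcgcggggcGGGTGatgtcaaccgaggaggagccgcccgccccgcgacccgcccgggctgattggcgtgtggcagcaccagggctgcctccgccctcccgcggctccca
The Klf2 window held the MEF2 core once, beginning 118 bases before the start site, and 1211 of 32851 promoter windows (3.69%) held that core. It also held 1 CACCC match, which 57.5% of all windows had at least once. The Heg1 window held 5 CACCC matches, which 1.02% of windows reached, and 2 GAGACC matches in tandem, which 1.47% of windows reached. The Piezo1 window held 1 CACCC and 1 GAGACC match, and the Klf4 window held none of the 3. CATCTG, an E-box of the kind bound by HAND2, was found in none of the 4 windows and in 17.2% of all windows. These matches describe letters in a short window and say nothing of binding.

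Of 14114 control and 13885 H2CKO barcodes, 8793 and 11534 cells passed the filters on genes, mitochondrial share and doublets, with medians of 16223 and 13430 UMIs a cell. The libraries shared 57 barcodes, of which 28 were among the kept cells of both and 0 among endothelial-like cells. Cells were clustered without the 6 genes and without the pathway genes listed further on, so that no cluster was formed on them. Some pathway genes did serve as markers for naming clusters, among them Pecam1, Cdh5 and Kdr for endothelial cells. A single cluster had all 12 endothelial markers and is called endothelial-like here, with 371 control and 756 H2CKO cells and medians of 12772 and 10255 UMIs. Hand2 in these cells was 230.2 CPM (CPM, the gene's UMIs scaled in the usual way by all UMIs of the class) in the control and 11.4 CPM in H2CKO, and GFP was 15.9 and 1179 CPM, in the direction the labels give. Each genotype is 1 library, so no difference below has a replicate check or a test, and every interval is an exact 95% interval that covers counting error only.

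Nos3 was the most endothelial of the genes by place of expression. In endothelial-like cells it stood at 131 CPM in the control (interval 122 to 140) and 90.2 CPM in H2CKO (84.3 to 96.5). Every other class lay at or below 2.46 CPM in both libraries. Endothelial-like cells held 87.6% of all Nos3 UMIs of kept cells in the control and 86.0% in H2CKO. Nos3 gave 0 UMIs in 62 control white-blood-cell-like cells, with an upper limit of 3.30 CPM.

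Klf2 was highest in endothelial-like cells, at 1616 CPM in the control (1584 to 1648) and 1056 CPM in H2CKO (1036 to 1077). White-blood-cell-like cells came next with 630 and 482 CPM, followed by mesenchymal-like cells with 95.5 and 85.7 CPM. Cardiomyocyte-like cells held 8.62 and 6.80 CPM. Erythroid-like cells held the least, 2.59 and 2.18 CPM. No neighbouring pair in this order had overlapping intervals in either library.

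Klf4 was less restricted. Endothelial-like cells held 406 CPM in the control (390 to 423) and 151 CPM in H2CKO (143 to 159), while mesenchymal-like cells, the cushion and fibroblast lineage, held 97.6 and 77.2 CPM. Endothelial-like cells therefore gave 41.4% of the Klf4 UMIs in the control and 45.7% in H2CKO. Klf4 in epicardial-like and in white-blood-cell-like cells had overlapping intervals in both libraries, at 52.2 and 43.9 CPM in the control and 30.8 and 32.0 CPM in H2CKO.

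Thbd was rare but largely endothelial. It stood at 26.7 CPM in control (22.8 to 31.1) and 14.9 CPM in H2CKO (12.5 to 17.5) endothelial-like cells, from 164 and 142 UMIs. Every other class lay at or below 2.46 CPM. Endothelial-like cells gave 55.2% and 65.4% of its UMIs.

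Piezo1 and Heg1 were broad. Piezo1 was 69.1 CPM in control (62.7 to 76.0) and 46.5 CPM in H2CKO (42.2 to 51.0) endothelial-like cells. Epicardial-like cells followed in the control at 30.8 CPM, and in H2CKO they stood at 18.6 CPM with an interval overlapping that of white-blood-cell-like cells at 19.1 CPM. Only 18.8% of Piezo1 UMIs in the control and 24.0% in H2CKO came from endothelial-like cells. Heg1 was 215 CPM in control endothelial-like cells (203 to 226.5), ahead of epicardial-like cells at 47.3 CPM. In H2CKO it was 47.2 CPM (42.9 to 51.8), still ahead of epicardial-like cells at 23.8 CPM. The endothelial share of Heg1 UMIs was 37.2% in the control and 25.8% in H2CKO, where cardiomyocyte-like cells held 57.2% through their number at 13.3 CPM.

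The CPM of endothelial-like cells exceeded that of all other cells pooled for all 6 genes in both libraries. The fold ran from 5.64 for Piezo1 to 172 for Nos3 in the control and from 5.57 for Piezo1 to 108 for Nos3 in H2CKO. Of all genes tested in the same way, 20.8% in the control and 25.9% in H2CKO were past 2-fold higher in endothelial-like cells.

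**Figure D1:**
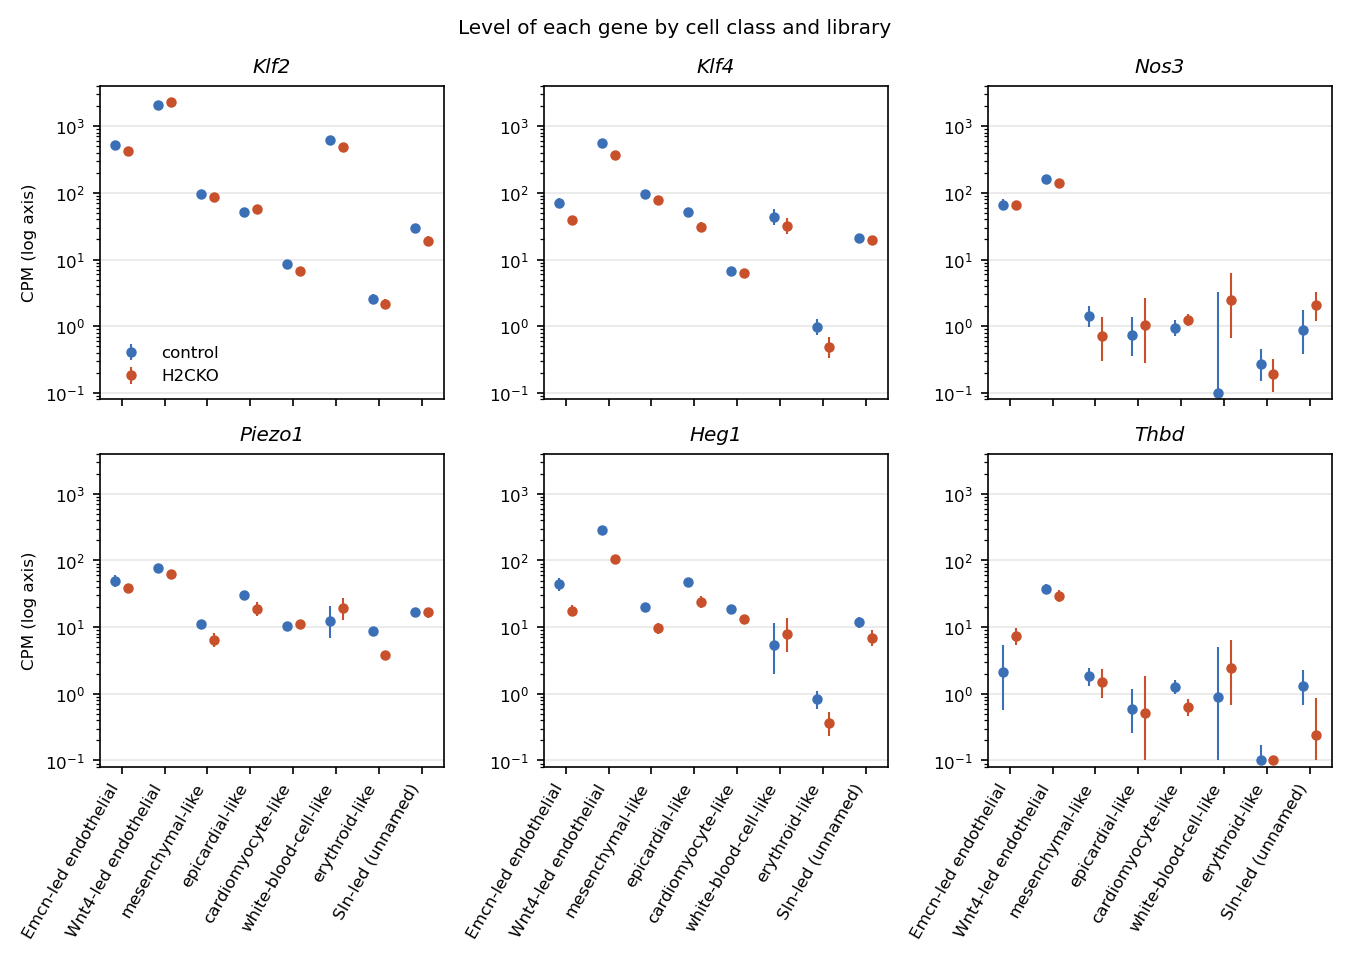
Level of each gene in CPM (log axis) in 8 cell classes, with control in blue and H2CKO in red; points are class sums, bars are exact 95% Poisson intervals, and values under 0.1 are drawn at 0.1. All 6 genes were highest in the Wnt4-led endothelial sub-cluster, and Nos3 and Thbd were near the floor outside the endothelium.

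At a finer resolution the endothelial-like cells fell into 2 sub-clusters. For each of the 6 genes the fold between these sub-clusters, in either library, was larger than the fold between the libraries within a sub-cluster. The first, led by Emcn (endomucin), Tm4sf1 and Klhl4, held 114 control and 485 H2CKO cells. The second, led by Stmn2, Wnt4 and Aqp1, held 258 control and 271 H2CKO cells, 1 of them outside the endothelial-like class. It had all 12 endothelial markers, yet Stmn2 is a neuronal marker, so the naming rule left it without a cell type name. They are called the Emcn-led and Wnt4-led sub-clusters. The Emcn-led sub-cluster made up 30.7% of the endothelial-like class in the control and 64.2% in H2CKO, and how much of that gap lies in the hearts and how much in dissociation or capture was not tested.

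Klf2 in the control was 2097 CPM in Wnt4-led cells and 529 CPM in Emcn-led cells, a 3.96-fold difference (3.71 to 4.23). In H2CKO the levels were 2290 and 420 CPM, 5.46-fold apart (5.22 to 5.71). Klf4 showed the same order, with 555 against 70.5 CPM in the control (7.87-fold) and 368 against 38.9 CPM in H2CKO (9.48-fold). Heg1 was 290 against 44.0 CPM in the control (6.6-fold, 5.28 to 8.34) and 105 against 17.6 CPM in H2CKO (5.94-fold, 4.78 to 7.42). Both transcription factors and the receptor were thus concentrated in the same sub-cluster in each genotype.

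Thbd was nearly confined to the Wnt4-led cells of the control, with 160 UMIs there and 4 in Emcn-led cells (37.6 and 2.12 CPM). In H2CKO the split was 96 and 46 UMIs (29.5 and 7.30 CPM, 4.05-fold). Nos3 differed less, at 159 and 66.8 CPM in the control (2.38-fold, 1.97 to 2.91) and 139 and 65.1 CPM in H2CKO (2.14-fold, 1.87 to 2.45). Piezo1 differed least, at 78.2 and 48.8 CPM in the control (1.60-fold, 1.27 to 2.04) and 62.4 and 38.2 CPM in H2CKO (1.63-fold, 1.35 to 1.98).

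On the scale of log2(CPM + 5), 5 of the 6 genes, all but Piezo1, were past 2-fold higher in Wnt4-led than in Emcn-led cells in each library. The share of all tested genes past 2-fold higher was 7.79% in the control and 6.43% in H2CKO. Because the cells were divided by their own expression, these are descriptions of the sub-clusters.

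The sub-clusters also differed between the libraries in endothelial subtype markers. Npr3, a natriuretic peptide receptor of ventricular endocardium, was 487 CPM in control and 80.8 CPM in H2CKO Emcn-led cells. Cldn5, a tight-junction gene used here as a vascular marker, was 26.0 and 128.5 CPM there. Npr3 was detected in 85.1% of control and 51.1% of H2CKO Emcn-led cells, and Cldn5 in 14.9% and 60.2%. In Wnt4-led cells Npr3 was 60.6 and 18.1 CPM and Nfatc1 284 and 161 CPM. The Emcn-led cells of the 2 libraries were therefore unlike in make-up as well as in number, and the part of this in the values of the 6 genes was not tested.

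Over all endothelial-like cells, each of the 6 genes was lower in H2CKO than in the control, as were 69.8% of all tested genes. Heg1 fell from 215 to 47.2 CPM, a log2 ratio of −2.07 and a 4.55-fold difference in CPM. Klf4 went from 406 to 151 CPM, with a log2 ratio of −1.40 and a 2.69-fold difference. The other 4 stayed within 2-fold. Thbd had a log2 ratio of −0.67, Klf2 −0.61, Piezo1 −0.53 and Nos3 −0.51. So 2 of the 6 genes were past 2-fold lower, where 7.57% of the 6567 genes tested were, and the median tested gene stood at −0.28.

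Within the sub-clusters most of these differences became smaller. Klf2 was 529 CPM in control and 420 CPM in H2CKO Emcn-led cells, a log2 ratio of −0.33 (fold of H2CKO over control 0.793, interval 0.737 to 0.854). In Wnt4-led cells Klf2 was 2097 and 2290 CPM, a ratio of 0.13 (fold 1.09, 1.06 to 1.13). Klf2 was thus lower in H2CKO in the first sub-cluster and slightly higher in the second. The pooled value of −0.61 lies outside both.

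Klf4 was 70.5 and 38.9 CPM in Emcn-led cells (log2 ratio −0.78) and 555 and 368 CPM in Wnt4-led cells (−0.58). Klf4 was lower in H2CKO in both sub-clusters, with fold intervals of 0.445 to 0.686 and 0.619 to 0.712, but past 2-fold in neither. The 2-fold call on Klf4 thus held in the pooled cells and in neither sub-cluster.

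Heg1 was past 2-fold lower in both sub-clusters. It was 44.0 and 17.6 CPM in Emcn-led cells (log2 ratio −1.12, fold 0.400, 0.299 to 0.539) and 290 and 105 CPM in Wnt4-led cells (−1.43, fold 0.360, 0.319 to 0.407). Among the tested genes 8.76% were past 2-fold lower in Emcn-led and 3.29% in Wnt4-led cells, and Heg1 was the only member past 2-fold lower in either. Centred on the median tested gene, Heg1 stood at −0.85 in Emcn-led cells, which ends the call there, and at −1.20 in Wnt4-led cells.

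Nos3 was close between the libraries in Emcn-led cells at 66.8 and 65.1 CPM (log2 ratio −0.04, fold interval 0.796 to 1.199). It was 159 and 139 CPM in Wnt4-led cells (−0.19, 0.774 to 0.985). Piezo1 had ratios of −0.31 and −0.30. The interval of its fold included 1 in Emcn-led cells (0.614 to 1.01) and not in Wnt4-led cells (0.668 to 0.954). Both genes lay near the median tested gene, which was −0.26 in Emcn-led and −0.22 in Wnt4-led cells.

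Thbd in Wnt4-led cells was 37.6 and 29.5 CPM (log2 ratio −0.30), with a fold interval of 0.604 to 1.02. In Emcn-led cells it rested on 4 control and 46 H2CKO UMIs. Its higher level there, 7.30 CPM in H2CKO, lay under the minimum of 20 CPM, so it was not tested. The plot of ratios shows Thbd as the only member whose sub-clusters lie on opposite sides by a wide margin, and also the one with the widest interval (1.26 to 13.2 in Emcn-led cells).

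**Figure D2:**
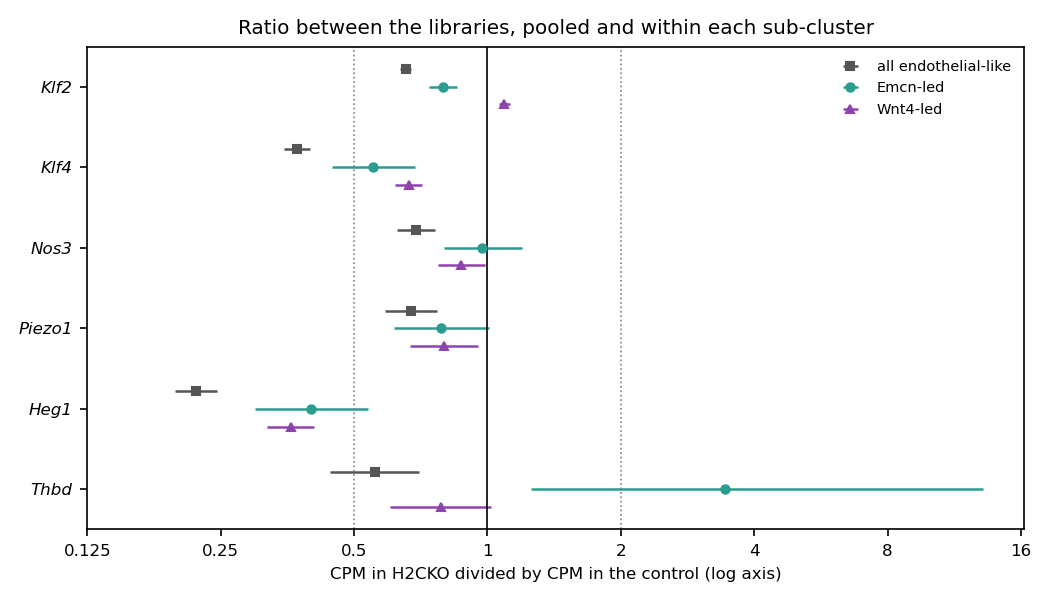
Ratio of CPM in H2CKO to CPM in the control (log axis, no pseudocount) for each gene in all endothelial-like cells (squares), the Emcn-led (circles) and the Wnt4-led sub-cluster (triangles), with exact 95% intervals; dotted lines mark 2-fold. Heg1 lies below 0.5 in all 3. Klf2, Klf4 and Heg1 each lie closer to 1 within the sub-clusters than in the pooled cells.

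Ratios fell with gene span in these libraries, which matters most for Heg1. With the tested genes cut by span into 10 equal bins, the bin of Heg1 held 656 genes, and there the median log2 ratio over endothelial-like cells was −0.64 and 15.2% were past 2-fold lower. In the bin of the shortest genes, with Klf2 and Thbd among its 658, the median was 0.08 and 3.04% were past 2-fold lower. Taken relative to genes of like span, Heg1 stood at −1.43 over all endothelial-like cells, −0.51 in Emcn-led and −0.90 in Wnt4-led cells. Its 2-fold call thus held in the pooled cells and not within the sub-clusters. Klf4 stood at −1.49 pooled, −0.85 and −0.65 on that scale, and Piezo1, the other long gene, at 0.03, 0.23 and 0.17. Klf2 stood at −0.69 pooled, −0.42 in Emcn-led and 0.02 in Wnt4-led cells, so its higher level in the last was close to that of genes of like span.

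RNA of other cell types and signs of RNA quality moved with genotype in the same cells. Endothelial-like cells had a median mitochondrial share of 3.65% in the control and 4.94% in H2CKO, and medians of 3811 and 2968.5 genes. A stricter filter of 1500 genes and 5% mitochondrial UMIs followed by new clustering gave 316 control and 367 H2CKO endothelial-like cells, 679 of them in the class described here, and under it Klf2 stood at −0.78 and Klf4 at −1.61. The summed level of the 12 mesenchymal markers in endothelial-like cells was 3389 CPM in the control and 1005 CPM in H2CKO, and all 8 that were tested were past 2-fold lower. Within Emcn-led cells that sum was 1570.2 and 515 CPM, and within Wnt4-led cells 4194 and 1955 CPM. The 10 erythroid markers summed to 15359.5 CPM in the control and 41137.5 CPM in H2CKO. Their sum was 21894 and 39107 CPM within Emcn-led cells and 12469 and 45073.6 CPM within Wnt4-led cells. With haemoglobin and mitochondrial UMIs left out of the totals, Klf2 stood at −0.55 and Heg1 at −2.03. The part of RNA quality and of mesenchymal RNA in the values of the 6 genes was not tested.

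Within H2CKO, 529 endothelial-like cells had a GFP UMI and 227 had none. Klf2 was 1249 CPM in cells with GFP and 491 CPM in cells without, Klf4 187 and 44.8 CPM, and Heg1 55.2 and 23.9 CPM. Cells with a GFP UMI were deeper, with a median of 10786 against 9077 UMIs. In the control, without Cre, cells with a GFP UMI were also higher, at 1806 and 1525 CPM for Klf2 and 240.1 and 202 CPM for Heg1. As folds in H2CKO, these differences were smaller within each sub-cluster for Klf2, Klf4 and Heg1. Within Emcn-led H2CKO cells Klf2 was 442 and 378 CPM, Heg1 17.0 and 18.7 CPM and Nos3 69.3 and 57.1 CPM. Only 34 Wnt4-led H2CKO cells lacked a GFP UMI, and Klf2 was 1508 CPM in them against 2354 CPM in the 237 with GFP. For Nos3 the gap in Wnt4-led cells was wider than in the pooled cells, at 146.9 CPM with GFP and 41.1 CPM without, beside 102 and 55.5 CPM pooled. The 41.1 CPM rests on 10 UMIs, with an interval of 19.7 to 75.6 CPM that includes the pooled 55.5 CPM. Piezo1 was likewise 66.5 and 12.3 CPM in Wnt4-led cells, beside 49.7 and 37.0 CPM pooled. The 12.3 CPM rests on only 3 UMIs (interval 2.54 to 36.0 CPM). A cell without a GFP UMI may still carry the recombined allele, and 21.6% of endothelial-like cells in the control, which has no Cre, gave a GFP UMI.

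In mesenchymal-like and epicardial-like cells Heg1 was again the member with the lowest ratio. In the first it was 20.1 CPM in the control and 9.64 CPM in H2CKO (log2 ratio −0.78), and in the second 47.3 and 23.8 CPM (−0.86). Of the members tested, 0 were past 2-fold lower in either class, where 3.52% and 4.95% of tested genes were. Hand2 stood at −1.84 in mesenchymal-like and −0.15 in epicardial-like cells, and its part in the Heg1 values was not tested. Klf4 was at −0.32 in mesenchymal-like and −0.68 in epicardial-like cells, and Klf2 at −0.15 and 0.15. In white-blood-cell-like cells 0 of the 2 members tested were past 2-fold lower, where 7.97% of genes were, and Klf2 was 630 and 482 CPM (−0.38) and Klf4 43.9 and 32.0 CPM (−0.40). In cardiomyocyte-like cells all 6 genes lay under the minimum of 20 CPM.

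Counts per cell showed how the sums were made up. At least 1 Klf2 UMI was found in 91.4% of the 371 control cells and 85.8% of the 756 H2CKO cells of the endothelial-like class. The median cell held 12.5 Klf2 UMIs per 10000 in the control and 4.76 in H2CKO. In Wnt4-led cells the medians were 16.9 and 18.9, and in Emcn-led cells 3.56 and 2.44. The pooled median thus differed more between the libraries than the median of either sub-cluster, while the share of Emcn-led cells was larger in H2CKO. The highest single cell held 292 Klf2 UMIs in the control and 234 in H2CKO, and the top 10% of cells carried 42.7% and 48.3% of all Klf2 UMIs.

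Klf4 was absent from more cells. It gave no UMI in 29.9% of the control and 53.7% of the H2CKO cells. Its median in Wnt4-led cells was 3.50 UMIs per 10000 in the control and 2.58 in H2CKO, and 12.8% and 3.32% of those cells held over 20 UMIs.

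Heg1 was found in a smaller share of cells in H2CKO in both sub-clusters. In Wnt4-led cells 80.6% of control and 52.0% of H2CKO cells had a UMI, and 32.6% and 4.43% had over 5. The median fell from 2.02 to 0.40 UMIs per 10000. In Emcn-led cells the share with a UMI was 46.5% and 18.6%.

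Nos3 and Piezo1 were seen in few UMIs per cell, with medians of 0.771 and 0.485 UMIs per 10000 for Nos3 over endothelial-like cells. For Piezo1 they were 0.387 and 0. The most Thbd UMIs in any cell were 10 in the control and 6 in H2CKO.

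**Figure D3:**
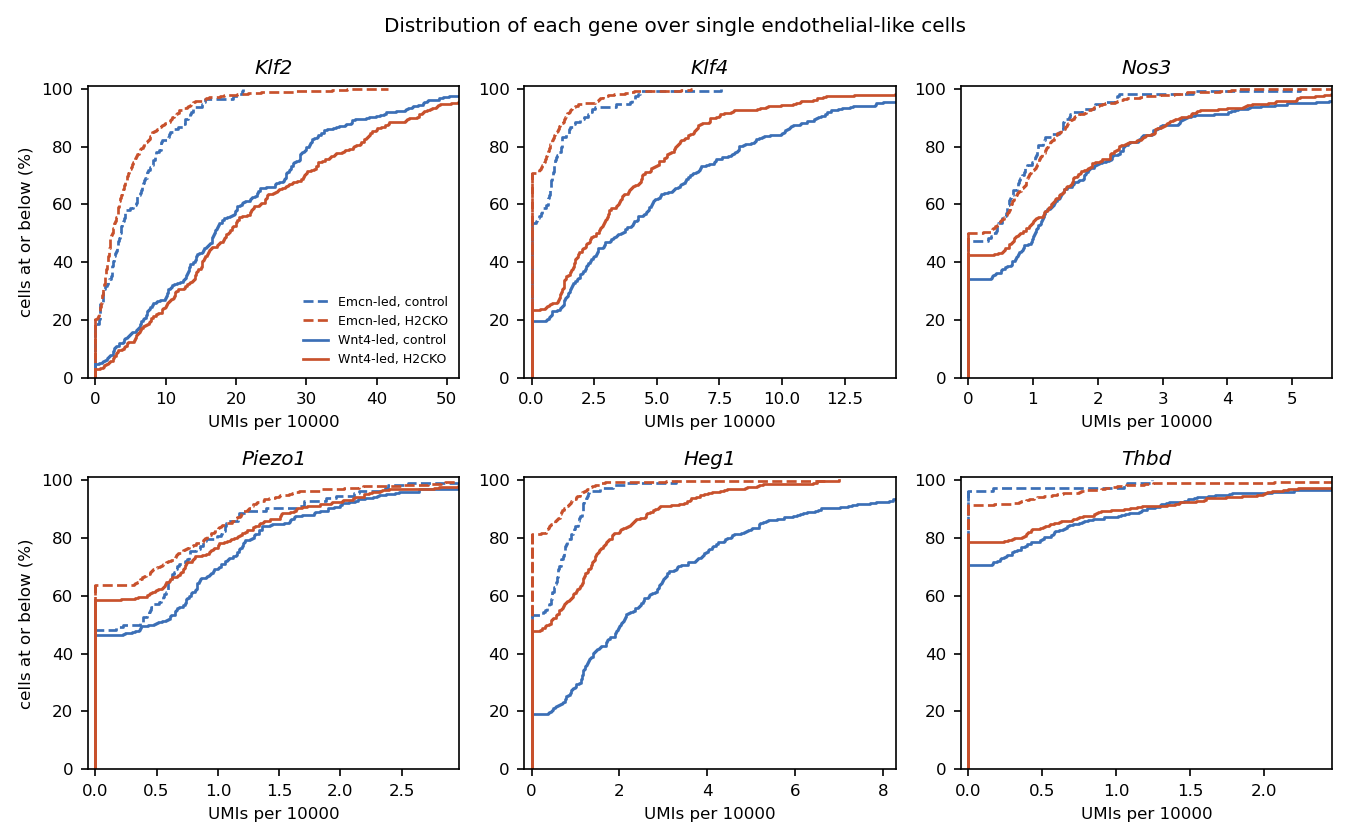
Cumulative share of cells (percent) at or below each level (UMIs per 10000) for the 6 genes, with control in blue, H2CKO in red, Emcn-led cells dashed and Wnt4-led cells solid. The Klf2 curves of each sub-cluster run close together in the 2 libraries, while for Heg1 they are apart, with 19.4% of control and 48.0% of H2CKO Wnt4-led cells at 0.

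Depth differed between the libraries, so shares were also taken with each cell thinned to 5000 UMIs (352 control and 697 H2CKO cells; 19 and 59 shallower cells were left out). Heg1 was then found in 48.6% of control and 18.4% of H2CKO cells, a difference of −30.2 percentage points (interval −36.3 to −24.1). Klf4 was found in 54.3% and 34.7% (−19.5 points, −25.9 to −13.0) and Klf2 in 86.1% and 76.9% (−9.18 points). Piezo1 was at 25% and 17.4% and Nos3 at 38.9% and 32.4%, and at 10000 UMIs the intervals of both differences included 0 (−15.6 to 0.49 and −13.2 to 3.09 points). For Thbd, at 9.38% and 6.31%, the interval of the difference included 0. In erythroid-like cells at this depth, 1.45% of control and 1.13% of H2CKO cells had a Klf2 UMI and 0.72% and 0.21% a Heg1 UMI. Piezo1 stood at 4.11% and 1.82% there. How much of these shares is free RNA and how much the cells' own transcript was not tested.

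The number of the 6 genes seen in a cell was counted at 5000 UMIs, with no chance level set beside it. At that depth 51.7% of endothelial-like cells in the control and 27.1% in H2CKO had a UMI of at least 3 of the 6 genes. The shares were 68.0% and 55.8% in Wnt4-led cells and 14.8% and 11.9% in Emcn-led cells. In mesenchymal-like cells they were 2.07% and 0.79%. No UMI of any of the 6 was found in 4.55% of the control and 10.9% of the H2CKO cells.

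Klf4 was seen in 60.7% of control cells with a Klf2 UMI and 14.3% of those without, and in H2CKO in 41.6% and 11.8%. Pearson's r of their log-scaled values over cells was 0.58 in both libraries (352 and 697 cells that share a library). Within sub-clusters it was lower, at 0.53 and 0.51 in Wnt4-led and 0.27 and 0.20 in Emcn-led cells. Klf2 with Heg1 gave 0.35 and 0.30 over endothelial-like cells, 0.20 and 0.10 within Wnt4-led cells, and −0.05 and 0.02 within Emcn-led cells. Klf2 with Piezo1 gave −0.01 and 0.07.

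**Figure D4:**
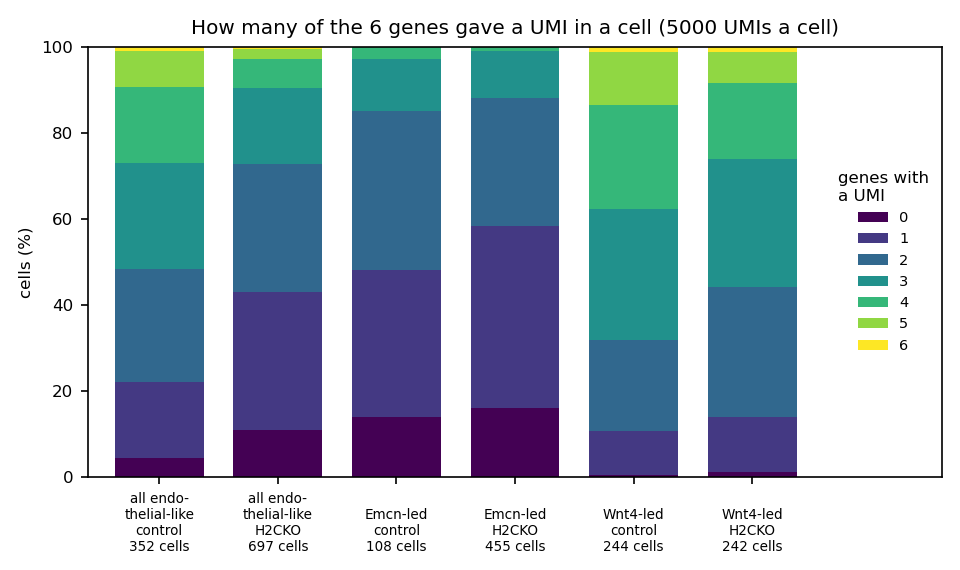
Share of cells (percent) in which 0 to 6 of the genes gave a UMI after thinning to 5000 UMIs, for all endothelial-like cells and both sub-clusters in each library. Cells with 3 or more genes are 51.7% in the control and 27.1% in H2CKO over all endothelial-like cells, and 68.0% and 55.8% in Wnt4-led cells.

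Klf2 and Klf4 are also among the genes known to respond to tissue dissociation, together with immediate-early genes such as Fos and Egr1. The summed thinned UMIs of 16 such genes had an r of 0.68 with Klf2 and 0.58 with Klf4 over control endothelial-like cells, and 0.63 and 0.56 in H2CKO. For Nos3, Piezo1, Heg1 and Thbd over the same pooled cells, r was between 0.01 and 0.24. Within sub-clusters r with Klf2 was lower, at 0.61 in control and 0.59 in H2CKO Wnt4-led cells and 0.52 and 0.27 in Emcn-led cells. With Klf4 it was 0.54 and 0.45 in Wnt4-led and 0.34 and 0.17 in Emcn-led cells. The summed level of the 16 genes was 3863 CPM in control and 2517 CPM in H2CKO endothelial-like cells. In Wnt4-led cells it was 4809 and 4367 CPM, and in Emcn-led cells 1727 and 1562 CPM. Like Klf2, the sum was higher in Wnt4-led than in Emcn-led cells of each library. At 5000 UMIs a cell its median was 16 UMIs in control and 18 in H2CKO Wnt4-led cells, and 7 in Emcn-led cells of both. Of 14 tested, 1 (Fosb, −1.63) was past 2-fold lower over endothelial-like cells and 0 higher, a share near the 7.57% of all tested genes. In Emcn-led cells Egr1, Zfp36 and Ier2 were past 2-fold higher and Fosb and Jun lower, where 1.52% and 8.76% of all tested genes were. In Wnt4-led cells 0 of 15 were past 2-fold in either direction, where 0.668% were higher and 3.29% lower. The part of dissociation in the Klf2 and Klf4 levels was not tested.

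Genes of flow sensing were read from a fixed list of 18 that includes the member Piezo1. Over endothelial-like cells 16 were tested, with a median log2 ratio of −0.60 beside −0.28 for all genes, and 4 were past 2-fold lower, where 7.57% of all tested genes were. With ratios centred on the median tested gene 0 were, a scale for which the share of all tested genes is not given. The 4 lower without centring were Trpm7, a channel kinase (−1.27), Itgb1, the integrin beta chain (−1.16), Pkd2, the cation channel polycystin (−1.13), and Notch1 (−1.02). Cav1, the caveolar coat protein, was past 2-fold higher at 22.8 and 77.6 CPM (1.57), where 0.868% of all tested genes were. Pecam1 and Cdh5, the junctional partners of the shear sensor complex, stood at −0.93 and −0.48. Trpm7 and Pkd2 were past 2-fold lower in both sub-clusters, Pecam1 in Emcn-led cells alone (−1.04) and Itgb1 in Wnt4-led cells alone (−1.17). These are 3 of 15 in each, where 8.76% of all tested genes in Emcn-led and 3.29% in Wnt4-led cells were past 2-fold lower. Trpm7 was also lower outside the endothelium, at −1.04 in mesenchymal-like and −1.23 in epicardial-like cells. Cav1 was past 2-fold higher in Emcn-led cells (1.73), where 1.52% of tested genes were. In Wnt4-led cells 0 of the 15 tested were past 2-fold higher, where 0.668% were.

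In the route from HEG1 to MEF2, 16 of 19 genes were tested, and Heg1 was the 1 gene past 2-fold lower over endothelial-like cells and in each sub-cluster, with 0 higher. That count is near the share of all tested genes (7.57% over endothelial-like cells). It was 3 with the stricter cell filter and 2 with CPM plus 1, settings for which the share of all tested genes is not given. Krit1, whose product binds the tail of HEG1, went from 79.6 to 48.1 CPM (−0.67), and Ccm2, its adaptor, from 33.8 to 41.0 CPM (0.24). Map3k3, encoding MEKK3, went from 37.7 to 25.1 CPM (−0.51), and Mapk7, encoding ERK5, from 18.7 to 12.7 CPM, under the minimum. Mef2c was 65.7 and 116.9 CPM (0.79), with 0.93 in Emcn-led and −0.19 in Wnt4-led cells. The list had a median of −0.23.

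Of 26 genes known to be raised by flow or by KLF2 and KLF4, 19 were tested over endothelial-like cells. The members Klf2, Klf4, Nos3 and Thbd are on this list, so it partly restates them. The median was −0.61, which is the ratio of Klf2 itself. Of the 19, 4 were past 2-fold lower (7.57% of all tested genes were) and 0 higher. With ratios centred on the median tested gene, 2 were lower and 1 higher, a scale for which the share of all tested genes is not given. Beside Klf4, those lower without centring were Wnt9b, a valve endocardial ligand (59.4 and 21.2 CPM, −1.29), and Adamts5, a versican protease (−1.22). The last of the 4 was Aqp1, a water channel (179 and 82.7 CPM, −1.07). In Wnt4-led cells, which held 365 of the 365 control and 202 of the 203 H2CKO Wnt9b UMIs, Wnt9b stood at −0.43 and Aqp1 at −0.13. There 0 of 20 were past 2-fold lower, where 3.29% of all tested genes were. Hmox1, the haem oxygenase (1.71), and Slco2a1, a prostaglandin transporter (1.18), were past 2-fold higher, where 0.668% were. In Emcn-led cells 0 of 15 were past 2-fold lower and Timp3, a protease inhibitor, was past 2-fold higher (1.57), where 8.76% and 1.52% of all tested genes were. Ratios below 0 numbered 11 of 15 in Emcn-led cells (median −0.28) and 15 of 20 in Wnt4-led cells (median −0.30), near the 69.0% and 67.9% of all tested genes. Klf6 was at −0.61 pooled, 0.42 in Emcn-led and −0.38 in Wnt4-led cells.

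Of 16 genes known to be lowered by flow or KLF factors, 8 were tested. Edn1, the vasoconstrictor endothelin, was 180 and 199 CPM over endothelial-like cells (0.14). In Emcn-led cells it was 51.9 and 181 CPM (1.71) and in Wnt4-led cells 237 and 234 CPM (−0.02). Icam1, a leukocyte adhesion receptor, was 11.4 and 39.8 CPM over endothelial-like cells (1.45) and past 2-fold higher in Emcn-led cells (1.09), as was Pdgfb (1.06), while Ccl2 (−3.13) and Ece1 (−1.86) were past 2-fold lower there. With Edn1 that made 3 of 8 higher and 2 lower in Emcn-led cells, where 1.52% and 8.76% of all tested genes were. Over endothelial-like cells Ccl2, a chemokine, went from 39.9 to 6.28 CPM (−1.99), Thbs1 from 191 to 54.2 CPM (−1.72) and Ece1, the endothelin-converting enzyme, from 320 to 126 CPM (−1.31). Pooled, 1 of 8 was past 2-fold higher and 3 lower, where 0.868% and 7.57% of all tested genes were. The pooled median was −0.46, in Emcn-led cells 0.68 and in Wnt4-led cells −0.32, where Thbs1 (−1.14) was the only gene past 2-fold.

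NOS3 and its partners had a median of 0.00 over 13 tested genes, above the −0.28 of all genes. Of the 13, 2 lay below −0.28, the member Nos3 among them. Of the 13, 1 was past 2-fold higher and 1 lower (0.868% and 7.57% of all tested genes were). Cav1, which binds NOS3, was the higher and Prkg1, the cyclic GMP kinase, the lower (21.6 and 4.81 CPM, −1.44). In Emcn-led cells Nostrin, which moves NOS3 away from the membrane, was also past 2-fold lower (−1.04). There 2 of 14 tested were lower and 1 higher, where 8.76% and 1.52% of all tested genes were. In Wnt4-led cells 0 of 11 were past 2-fold in either direction, where 3.29% were lower and 0.668% higher. Among 13 genes of thrombomodulin, protein C and clotting, 8 were tested and 0 were past 2-fold over endothelial-like cells (0.868% of all tested genes were higher and 7.57% lower), with Thbd at −0.67 and a median of −0.56. Anxa2 was past 2-fold higher in Emcn-led cells (1.06), where 1.52% were. In the KLF family 8 of 17 were tested, and Klf4 and Klf3 (225 and 99.3 CPM, −1.14) were past 2-fold lower in the pooled cells, where 7.57% of all tested genes were, and neither in a sub-cluster. The median was −0.69.

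**Figure D5:**
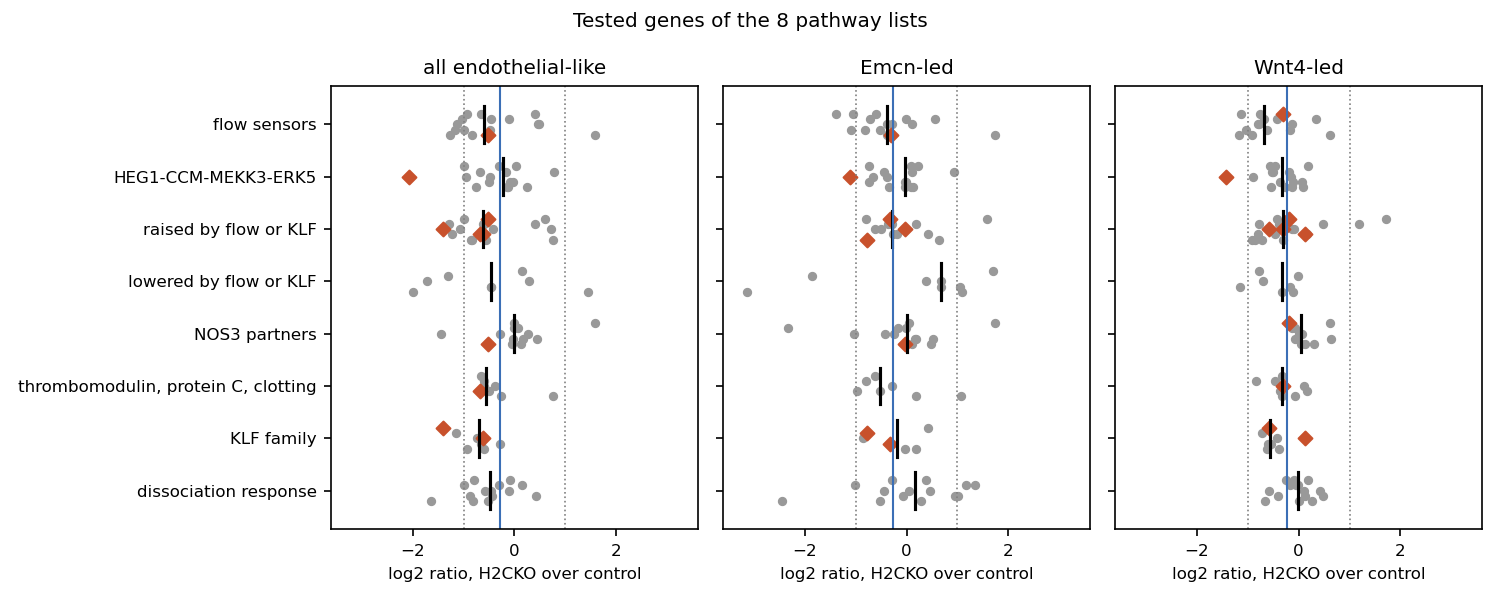
Log2 ratio of H2CKO over control for the tested genes of the 8 pathway lists in all endothelial-like cells and both sub-clusters; red diamonds are the 6 genes, grey points the others, black bars the list medians, the blue line the median of all tested genes and dotted lines 2-fold. Heg1 is the leftmost diamond in each panel, at −2.07, −1.12 and −1.43.

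Genes whose level followed that of each member were found over 16 profiles (8 classes in 2 libraries) among 8686 genes, by Pearson's r of log2(CPM + 5), given as a description. Nos3 was most like Arhgef15, Exoc3l4, Ccm2l, Sox18 and Sox7, with r from 0.98 to 0.99. Klf2 was most like Adam15, Fxyd5, Cbfa2t3, Klk8 and Arhgef1, each at 0.97. Thbd was most like Stmn2, Fam167a, Tppp, Nts and Ttc9, at 0.97 to 0.98, of which Stmn2 and Nts are leading genes of the Wnt4-led sub-cluster. Heg1 was most like Arf2, Jag1, Pnpla6, Uap1 and Adamts5, at 0.91 to 0.93. Piezo1 was most like Fabp5, Itpr1, Cracr2b, Pnpla6 and Ecscr at 0.91 to 0.93, and Klf4 most like Chpf2, Ndel1, Esyt1, B4galt7 and Tmod3 at 0.95 to 0.97. Among the members, Klf2 with Klf4, Nos3 with Piezo1 and Nos3 with Thbd gave 0.88, and Klf2 with Heg1 gave the lowest value of 0.67.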

How the data were processed

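Per the labels, 10x Genomics 3′ libraries were made from whole hearts. For each library the authors deposited raw UMI counts, which the files hold as 1 sparse matrix of whole numbers with Ensembl gene IDs and cell barcodes. The submitters' processing notes name Cell Ranger 5.0.1, Seurat 4 and GRCm38.p6; how barcodes were called is not given in the sources used here. The authors also deposited embedding coordinates, a score without unit, used only to mark cells for an alternative. Symbols were found for 22285 of the 22401 Ensembl IDs.

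A cell was kept if it had 500 or more genes and no more than 10% of its UMIs were mitochondrial. Scrublet (scanpy 1.11.5, expected rate 6%) removed 1048 control cells as doublets; its threshold marked 0 H2CKO cells, so the 607 highest scores (5%) were removed there. Cells were clustered on 2000 variable genes, scaled within each library, with the 6 members, all pathway-list genes, Hand2, the reporters, haemoglobin, mitochondrial and sex-linked genes left out, using 30 principal components, 15 neighbours from each library and Leiden (leidenalg 0.10.2) at resolution 1, and 2 for sub-clusters. Classes were named from fixed markers. To be named, a class had to show 3 or more of its markers, and its 10 leading genes could not favour another class.

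UMIs were summed per class and library as CPM of all UMIs. Ratios are log2 of (CPM + 5) in H2CKO over (CPM + 5) in the control, which understates changes of low genes, and the printed folds are CPM ratios without the 5. Genes with at least 20 CPM and 20 UMIs in the higher library count as tested, here meaning compared with the 2-fold threshold. Intervals are 95% exact Poisson, binomial (Clopper-Pearson) or conditional (scipy 1.17.1), and thinning draws UMIs without replacement. The ratio code was tested on simulated data. Named genes are the members, pathway-list genes past 2-fold in an endothelial cluster (at most 8 a list), 11 genes named whatever their value, the 5 genes most like each member, and Npr3, Nfatc1, Cldn5 and Hand2; Fos is background, and Atg9b and Ctu2 were added after values were seen. The members and lists were chosen with earlier results of these data known. Gene positions and spans are from GENCODE vM21, promoters from RefSeq.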

Additional observations from a re-analysis of the deposited data

Results flagged for a closer look

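Klf2 differed in direction between the endothelial sub-clusters. Its log2 ratio of H2CKO over control was −0.33 in Emcn-led cells and 0.13 in Wnt4-led cells, and the counting intervals of both folds lay clear of 1 on opposite sides. With 1 library per genotype the difference between the sub-clusters was not tested. The median tested gene stood at −0.26 and −0.22 in the same sub-clusters. Centred on that gene, Klf2 stood at −0.07 in Emcn-led and 0.35 in Wnt4-led cells. Relative to genes of like span, Klf2 stood at −0.42 in Emcn-led and 0.02 in Wnt4-led cells. The higher level in Wnt4-led cells was thus close to that of genes of like span.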

How the results depend on the processing

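Over 14 settings the log2 ratio of H2CKO over control in endothelial-like cells ranged from −2.17 to −1.12 for Heg1, −1.61 to −0.68 for Klf4, −0.78 to −0.10 for Klf2, −0.61 to −0.04 for Nos3, −0.65 to 0.03 for Piezo1 and −0.80 to 0.79 for Thbd. Heg1 alone stayed past 2-fold lower in all of them, where centring and the span trend were applied to the pooled cells only. Centred within sub-clusters, Heg1 stood at −0.85 in Emcn-led and −1.20 in Wnt4-led cells. Relative to genes of like span it stood at −0.51 and −0.90, short of 2-fold in both. Of 310 recomputed values 241 stayed within the counting interval or 1.5 times the count, 69 did not, and the cause was not tested unless the setting itself names it.
With Emcn-led cells alone, the ratios were −0.33 for Klf2, −0.78 for Klf4, −0.035 for Nos3, −0.31 for Piezo1, −1.12 for Heg1 and 0.79 for Thbd. Of listed genes there, 0 raised by flow were past 2-fold lower and 1 higher, 3 lowered by flow were higher, and 2 NOS3 partners lower. Further, 1 thrombomodulin gene was higher, 0 KLF genes were lower, and 2 dissociation genes were lower and 3 higher. Of all tested genes there, 8.76% were past 2-fold lower and 1.52% higher. For counts of listed genes under the settings below, no such share is given, so they cannot be set against a background.
In the mean of both sub-clusters weighted equally, a setting chosen after seeing the data, Klf2 stood at −0.10, Klf4 at −0.68, Nos3 at −0.11, Piezo1 at −0.31, Heg1 at −1.27 and Thbd at 0.24. With the gene-span trend taken off, also chosen after seeing the data, Klf2 stood at −0.69, Nos3 at −0.26, Piezo1 at 0.032 and Heg1 at −1.43.
Centred on the median tested gene, which lay at −0.28, the ratios were −0.33 for Klf2, −1.11 for Klf4, −0.23 for Nos3, −0.24 for Piezo1, −1.79 for Heg1 and −0.39 for Thbd. Then 0 flow sensors were lower, 1 HEG1-route gene higher, 2 raised genes lower and 1 higher, 1 thrombomodulin gene higher and 1 KLF gene lower. The share of all tested genes past 2-fold on the centred scale is not given.
With a stricter cell filter (1500 genes, 5% mitochondrial UMIs), Klf2 stood at −0.78 and Klf4 at −1.61, with 3 HEG1-route and 2 dissociation genes lower. Levels were then 1664 CPM for control and 969 CPM for H2CKO Klf2, 132 CPM for H2CKO Klf4, 81.5 CPM for H2CKO Nos3, 41.6 CPM for H2CKO Piezo1 and 199.7 CPM for control Heg1.
With doublets kept, Klf2 stood at −0.55 and Heg1 at −2.01, and with haemoglobin and mitochondrial UMIs left out of totals at −0.55 and −2.03. With cells of the deposited embeddings alone, Klf2 stood at −0.57. With cells thinned to 5000 UMIs, Klf2 stood at −0.53, Klf4 at −1.32 and Heg1 at −1.95, with 2 raised genes and 0 NOS3 partners lower.
With each cell classed by its own markers, 1 raised gene was higher, and with CPM plus 1, 2 HEG1-route genes were lower. With a minimum of 100 CPM, 2 flow sensors were lower and 0 higher, 2 raised genes lower, 0 lowered genes higher, and 0 NOS3 partners lower and 0 higher, since fewer genes were tested.
The gap in cells with a UMI was −28.3 points for Klf4 and −40.7 for Heg1 at 10000 UMIs, and −15.0 for Piezo1, −39.8 for Heg1 and −8.20 for Thbd without thinning.
No paired analysis was possible because each genotype is 1 library, and no library could be left out. Depth limits Thbd most, with 4 UMIs in control Emcn-led cells.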
